A study of Mus musculus with 3 samples.

Results

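The Ikaros family loci of mouse were examined in peak lists of 2 histone marks: Ikzf1 (Ikaros), Ikzf3 (Aiolos) and Ikzf2 (Helios). Members were the peaks that overlapped 1 of 3 windows fixed on mouse build mm9. The windows were chromosome 11 from 11500000 to 11700000 for Ikzf1 (200 kb), chromosome 11 from 98300000 to 98430000 for Ikzf3 (130 kb) and chromosome 1 from 69560000 to 69760000 for Ikzf2 (200 kb). They held 35 of 47610 peaks: 25 of 29468 for acetylated lysine 27 of histone H3 (H3K27ac) and 10 of 18142 for trimethylated lysine 4 (H3K4me3). The chromatin came from cultured, untreated mouse precursor B cells of an acute lymphoblastic leukaemia driven by the Bcr-Abl kinase, grown in 10% serum. There was 1 library for H3K27ac, 1 for H3K4me3 and 1 for control immunoglobulin (IgG), and the IgG library has no peak list here. The labels do not say whether the culture is 1 clone or which other alleles it carries.

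Ikaros family proteins are zinc-finger transcription factors that bind DNA through fingers near the amino terminus and pair with each other through fingers near the carboxyl terminus. They recruit chromatin remodelling complexes and can activate or silence genes. Ikaros is required for lymphocyte development, and its gene is often deleted in human BCR-ABL1-positive lymphoblastic leukaemia. Aiolos acts mainly in the B lineage, and Helios is best known from T cells. H3K4me3 marks promoters, and H3K27ac marks active promoters and enhancers.

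The 3 loci differed in which marks they carried. Ikzf1 held 13 H3K27ac and 2 H3K4me3 peaks, Ikzf3 held 12 and 7, and Ikzf2 held 0 and 1. H3K27ac peaks covered 40.8 kb at Ikzf1 (20.4% of its window), 34.6 kb at Ikzf3 (26.6%) and none of the Ikzf2 window. H3K4me3 peaks covered 12.2 kb at Ikzf1 (6.08%), 15.6 kb at Ikzf3 (12.0%) and 1.49 kb at Ikzf2 (0.742%). Ikzf1 thus had more H3K27ac length than Ikzf3, by 6.15 kb, but a smaller part of its longer window was covered. That difference became 3.23 kb with scores of at least 100 only, and 31.2 kb with windows widened by 50 kb. With 1 library per mark no replicate error exists, so none of these differences could be tested.

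**Figure D1:**
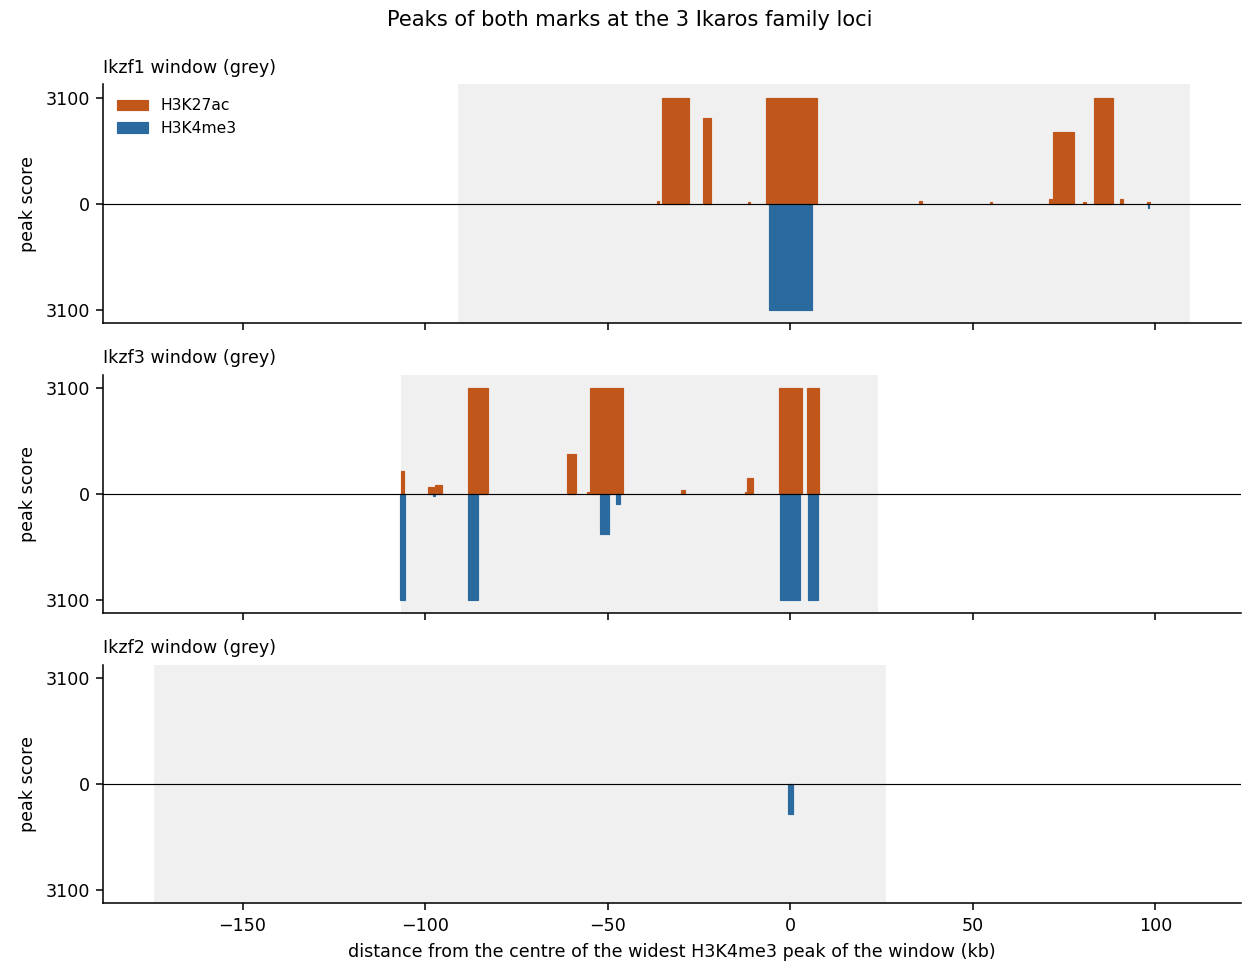
Peaks of H3K27ac (bars upward) and H3K4me3 (bars downward) in the 3 windows (grey), placed by distance in kb from the centre of the widest H3K4me3 peak of each window; bar width is peak width and bar height is the authors' peak score. Ikzf1 has a central peak of both marks with H3K27ac clusters on the low side and on the high side, Ikzf3 has both marks together at several positions, and Ikzf2 has 1 H3K4me3 peak.

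Peaks are described by their width and by the score that the authors deposited. No header or label defines that score. Many peaks (6863 of H3K27ac and 9042 of H3K4me3) are tied at 3100, called the ceiling here although 243 and 75 peaks score above it. The score therefore serves only to rank peaks within a list, and it cannot rank the tied ones. Median width was 1782 bp in the H3K27ac list and 1807 bp in the H3K4me3 list. In the whole lists 24.1% of H3K27ac peaks and 50.3% of H3K4me3 peaks were at or above the ceiling, and 10.9% and 5.83% measured 4000 bp or more. Sequencing depth is unknown.

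The reference promoter table held 2 start sites for Ikzf1, the member with the widest H3K4me3 peak, and matched 1 of the 3 genes. Ikzf3 and Ikzf2 had no entry. The sequences are shown because the 2 starts differ in base composition. They are from RefSeq on build GRCm38.p6, plus strand, 250 bases before to 50 bases after each start, with CpG dinucleotides in capitals. The first is chr11:11685675-11685974 and the second chr11:11689927-11690226, on another build than the peaks, so their positions within the mm9 peaks were not read.
Ikzf1 start 1: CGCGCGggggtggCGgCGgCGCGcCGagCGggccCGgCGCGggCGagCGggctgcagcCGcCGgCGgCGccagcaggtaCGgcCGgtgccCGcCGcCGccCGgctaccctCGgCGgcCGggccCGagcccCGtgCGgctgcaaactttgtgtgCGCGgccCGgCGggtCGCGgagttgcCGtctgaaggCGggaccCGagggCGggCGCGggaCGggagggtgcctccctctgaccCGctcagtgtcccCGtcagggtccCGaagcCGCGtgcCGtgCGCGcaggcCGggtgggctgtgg
Ikzf1 start 2: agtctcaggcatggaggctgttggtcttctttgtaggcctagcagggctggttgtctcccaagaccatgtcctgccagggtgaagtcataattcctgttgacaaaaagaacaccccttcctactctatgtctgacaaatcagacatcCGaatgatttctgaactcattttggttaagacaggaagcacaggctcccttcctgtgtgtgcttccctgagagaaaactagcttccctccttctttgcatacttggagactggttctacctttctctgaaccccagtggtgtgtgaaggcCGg
The first sequence held 52 CpG dinucleotides and was 81.3% G or C. Of 32851 promoter entries, 0.575% had at least as many CpG dinucleotides. The second held 2 CpG dinucleotides and was 49.0% G or C, against medians of 7 and 52.7% over all entries. Motifs were searched on both strands. GGGAA, the core letters bound by Ikaros proteins, occurred 0 times in the first sequence and 2 times in the second, and 62.7% of all promoter entries held it at least once. TGTGGT, the core of Runx sites, occurred in neither and was found in 16.8% of all entries. CGGAAG, an Ets core, occurred in neither and was found in 16.9%. CAGGTG, an E-box, occurred in neither and was found in 20.2%. Each motif was counted on its own. The 2 starts lie 4252 bp apart on GRCm38.p6.

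Ikzf1 carried a wide peak of both marks, called its central peak here. The H3K4me3 peak (chromosome 11, 11584782 to 11596584) measured 11803 bp, scored 3100 and ranked 3 by width among all 18142 H3K4me3 peaks. The H3K27ac peak over it (11584004 to 11598080) measured 14077 bp, scored 3100 and was 107th by width of 29468. The acetylation contained the methylation whole and reached 778 bp further on the low-coordinate side and 1496 bp further on the high-coordinate side. The H3K27ac peak was thus 1.19 times as wide as the H3K4me3 peak it contained.

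Most other H3K27ac peaks of the Ikzf1 window had no H3K4me3. Of its 13 peaks 2 overlapped H3K4me3 (15.4%, exact 95% interval 1.92 to 45.4%), against 52.3% of the whole list. The 11 peaks without it made up 26.0 kb, or 63.7% of the acetylated length of the locus. In the whole list, H3K27ac peaks without H3K4me3 made up 23164 kb and those with it 42660 kb. Such exact intervals take each peak as an independent count and hold no other error, so they are no test against the list. Ikzf1 had 3.35 kb of H3K27ac per kb of H3K4me3, Ikzf3 had 2.23, and the whole lists had 1.84.

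The acetylated peaks of Ikzf1 without methylation formed a low-side and a high-side group. Low of the central peak lay 4 of them. The widest of these (11555601 to 11562938) measured 7338 bp, scored 3100 and lay 21.8 kb from the nearest H3K4me3. Beside it were a 2230 bp peak (11566812 to 11569041) with a score of 2529, and peaks of 584 and 557 bp scoring 75.4 and 64.4. This group therefore consisted of 2 high-scoring and 2 weak peaks. High of the central peak lay 7 without methylation. The widest measured 5706 bp (11662757 to 11668462) and scored 2095, and the next measured 5264 bp (11673919 to 11679182) and scored 3100. The other 5 measured 470 to 1204 bp and scored 53.1 to 145.

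The 2 Ikzf1 peaks at the ceiling without H3K4me3 belong to a small class, since 2.21% of H3K27ac peaks (652) combined that score with no H3K4me3. Among these 652 peaks the median width was 4901 bp. The 7338 bp peak was 107th by width in the class and the 5264 bp peak 274th. Weak peaks were common at the same locus: 6 of the 13 H3K27ac peaks scored under 100 (46.2%, interval 19.2 to 74.9%), against 17.7% of the whole list. This comparison mixes 2 classes. In the whole list 4421 of 14059 H3K27ac peaks without H3K4me3 scored under 100, but 805 of 15409 with it. At Ikzf1 the counts were 5 of 11 without and 1 of 2 with it, so the class without H3K4me3 is the nearer comparison. Ikzf1 thus held some of the wider peaks of the list beside weak ones. With 11 peaks, whether weak ones were more frequent than in that class was not tested. Small peaks partly lay right beside wide ones. The 584 bp peak ended less than 1000 bp from the 7338 bp peak, and the 1204 bp peak ended 7 bp from the 5706 bp peak. The 13 H3K27ac peaks of Ikzf1 became 11 with peaks within 1000 bp joined and 7 with scores of at least 100. They became 5 when the H3K27ac list was cut to its 18142 highest-scoring peaks.

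Joining H3K27ac peaks up to 12500 bp apart gave 4 stitched regions at Ikzf1. The low-side region (11554094 to 11598080) spanned 44.0 kb, held 5 peaks including the central one, and had 24.8 kb of peak length, which ranked 188th in the genome (1.17% of regions were as long or longer). The high-side region (11661546 to 11689121) spanned 27.6 kb with 6 peaks and 14.6 kb of peak length, ranked 650th (4.03%). The 63.5 kb between them held 2 weak peaks of 882 and 470 bp, scoring 91.5 and 53.1. The high-side region ended in the second H3K4me3 peak of the locus (11688544 to 11688898), which measured 355 bp, scored 112 and lay inside a 723 bp H3K27ac peak scoring 67.8. In the reference table the protein-coding neighbours of Ikzf1 are 4930512M02Rik on the low side and Fignl1 on the high side. Peaks were not assigned to these genes, so which gene a flanking peak belongs to cannot be told apart from position alone.

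Within these windows the marks lay together at more positions at Ikzf3 than at Ikzf1, where 2 H3K4me3 peaks met H3K27ac. This depended on the borders. With windows widened by 50 kb, Ikzf1 held 6 H3K4me3 peaks, 100% of them overlapping H3K27ac, and Ikzf3 held 10, with 90%. In the window as given, all 7 H3K4me3 peaks of Ikzf3 overlapped H3K27ac (interval 59.0 to 100%), against 86.1% of the whole list. Of its 12 H3K27ac peaks, 7 overlapped H3K4me3 (58.3%, interval 27.7 to 84.8%), against 52.3%. Under the alternatives the H3K27ac share ran from 41.7% (overlap of 50% of the shorter peak) to 71.4% (lists of the same length). Both intervals hold the list's value, but they take each peak as an independent count, so this is no test against the list. The peaks are not independent, since 2 of those 7 H3K27ac peaks met the same H3K4me3 peak of 690 bp. At or above the ceiling were 4 of the 12 H3K27ac peaks and 4 of the 7 H3K4me3 peaks. Each of those 4 H3K27ac peaks overlapped H3K4me3, as did 90.8% of the 7106 H3K27ac peaks at or above the ceiling in the whole list, so the count at Ikzf3 is near that of the list. At Ikzf1, 1 of the 3 at the ceiling overlapped it. Peaks without H3K4me3 made up 18.9% of the acetylated length at Ikzf3 and 63.7% at Ikzf1. The whole list lay between these shares.

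The widest H3K4me3 peak of Ikzf3 (chromosome 11, 98403506 to 98408955) measured 5450 bp, scored 3100 and was 277th by width in the list. An H3K27ac peak of 6358 bp (98403162 to 98409519) contained it and reached 344 bp further on the low side and 564 bp further on the high side. Next to it, on the high side, lay a second pair of ceiling peaks: 3218 bp of H3K27ac (98410875 to 98414092) around 2747 bp of H3K4me3 (98411196 to 98413942). In both pairs the acetylated peak was 1.17 times as wide as the methylated one. That ratio was 1.19 at the centre of Ikzf1.

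The widest H3K27ac peak of Ikzf3 had another form. It measured 9153 bp (98351387 to 98360539), scored 3100 and contained 2 H3K4me3 peaks below the ceiling, of 2306 bp scoring 1180 and of 993 bp scoring 286. Methylation covered 36.0% of this acetylated peak, compared with 83.8% of the central peak of Ikzf1 and 85.7% of the 6358 bp peak of Ikzf3. The acetylation reached 2867 bp below the lower of these H3K4me3 peaks and 971 bp above the upper one. An excess mostly on 1 side was seen where 5567 bp of H3K27ac (98317972 to 98323538) contained 2694 bp of H3K4me3 (98318107 to 98320800), both at the ceiling. Acetylation reached 135 bp further there on the low side and 2738 bp further on the high side.

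The remaining peaks of the Ikzf3 window were narrower. The 5 H3K27ac peaks without H3K4me3 measured 525 to 2469 bp and scored 53.9 to 1161, and the widest of them (98345051 to 98347519) lay 6.73 kb from H3K4me3. None reached the ceiling. At the low edge, an H3K4me3 peak of 1442 bp scoring 3100 (98299230 to 98300671) crossed the border of the window with an H3K27ac peak of 919 bp scoring 680 inside it, the only pair here in which methylation was the wider mark on both sides. A weak H3K4me3 peak of 690 bp, scoring 58.9, touched 2 H3K27ac peaks of 1550 and 1807 bp. Stitching gave 4 regions with summed peak lengths of 9.84, 12.3, 1.09 and 11.9 kb, the longest ranked 888th in the genome (5.50% of regions were as long or longer). Mien1 and Grb7 lie on the low side of Ikzf3 in the reference table and Zpbp2 and Ormdl3 on the high side. Some of these peaks may therefore belong to neighbours, which was not tested.

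**Figure D2:**
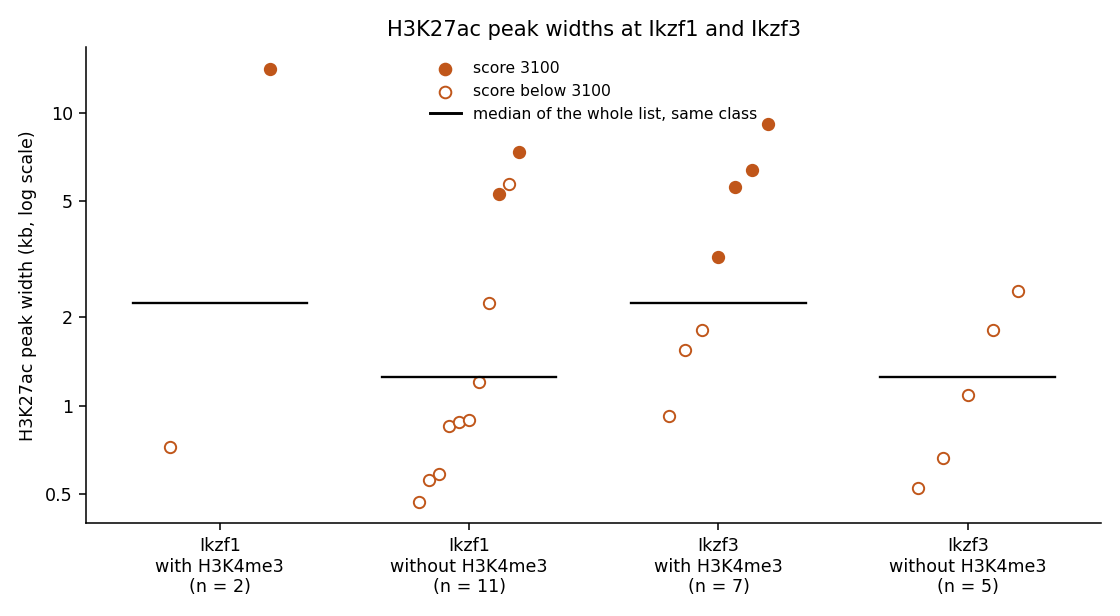
Width of each H3K27ac peak (kb, log scale) at Ikzf1 and Ikzf3, split by overlap with H3K4me3; filled points score 3100, open points score less, and the black line is the median of all H3K27ac peaks of the same class. At Ikzf1, 2 filled points lie in the class without H3K4me3; at Ikzf3 all 4 lie in the class with it.

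Acetylated peaks that overlapped methylation were wider than the others in the Ikzf3 window, with medians of 3218 bp and 1087 bp (7 and 5 peaks). The whole list gave 2245 and 1252 bp. At Ikzf1 the 11 peaks without H3K4me3 had a median of 892 bp and a range of 470 to 7338 bp. Their 3 widest exceeded every H3K27ac peak without H3K4me3 at Ikzf3. These are descriptions of peaks in 1 library, and peaks of 1 locus are not replicates.

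Ikzf2 carried H3K4me3 without H3K27ac. Its only peak (chromosome 1, 69733226 to 69734710) measured 1485 bp and scored 884, below the ceiling. No H3K27ac peak overlapped the 200 kb window. The nearest lay 2.21 Mb away on the low side and 0.595 Mb away on the high side, so that the peak sat in 2.80 Mb of chromosome 1 (67528131 to 70329682) without H3K27ac. This was the 60th longest of 29378 gaps between H3K27ac peaks on the autosomes and X. An H3K4me3 peak within such a gap was common: 30 of the 60 gaps at least this long, and 217 of the 472 gaps of 1 Mb or more, held at least 1. The Ikzf2 peak was the only H3K4me3 peak of its gap, with the next ones 2.65 Mb and 1.41 Mb away. Of all 18142 H3K4me3 peaks, 32 (0.176%) lay as far from their nearest H3K4me3 neighbour. Erbb4 and Spag16 are the protein-coding neighbours of Ikzf2 in the reference table.

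The Ikzf2 peak was compared with the 2525 H3K4me3 peaks of the list that had no H3K27ac. Their median width was 763 bp, their median score 137 and their median distance to H3K27ac 29.9 kb. A width of at least 1485 bp was found in 7.60% of them and a score of at least 884 in 9.23%. A distance of at least 595 kb was found in 84 of them (3.33%), the Ikzf2 peak included. Of those 84, the Ikzf2 peak was the only one (1) with a score of at least 884, a combination looked at after the values were seen. Against all H3K4me3 peaks the Ikzf2 peak was ordinary, since 60.1% were as wide or wider and 61.1% scored as high or higher.

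**Figure D3:**
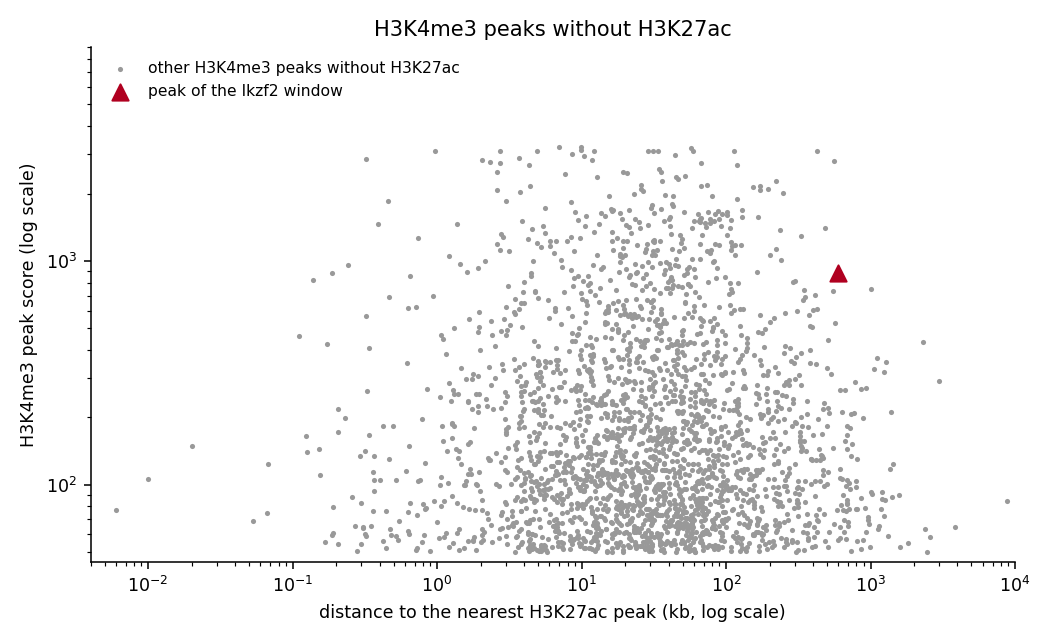
Score of the H3K4me3 peaks without H3K27ac (log scale) against distance to the nearest H3K27ac peak (kb, log scale); grey points are other peaks of the list and the red triangle is the peak of the Ikzf2 window. The triangle lies at 595 kb and a score of 884, at the upper right border of the points.

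The loci were also set against all tiles of the same length along the autosomes and X, as a description of where they fall. Of 13171 tiles of 200 kb, 1.11% had as much H3K27ac length as Ikzf1 or more and 4.91% as much H3K4me3 length. Of the 7178 tiles with any peak, these shares were 2.03% and 9.01%. For Ikzf3, 0.627% of 20266 tiles of 130 kb had as much H3K27ac and 0.923% as much H3K4me3, and of the 9376 tiles with any peak 1.35% and 1.99%. In covered length both loci were thus near the upper end for both marks. The tiles were not centred on genes, and 45.5% of those of 200 kb held neither mark.

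As shares of tiles, peak numbers separated Ikzf1 from Ikzf3 more than covered length did, chiefly for H3K4me3. The tiles measured 200 kb for Ikzf1 and 130 kb for Ikzf3. The 13 H3K27ac peaks of Ikzf1 were matched or exceeded in 2.32% of tiles, but its 2 H3K4me3 peaks in 30.7%. The 12 and 7 peaks of Ikzf3 were matched or exceeded in 0.893% and 1.23%. Among the 3494 tiles of 200 kb with 1 or 2 H3K4me3 peaks the median H3K27ac length was 3.13 kb, and 8 tiles (0.229%) had at least the 40.8 kb of Ikzf1. The peak number of Ikzf1 itself set this class, which was not among the planned comparisons. It was not matched for H3K4me3 length, and 1 of the 2 Ikzf1 peaks was 11803 bp wide. These tiles are therefore not like Ikzf1 in H3K4me3, and the share does not measure how unusual the locus is. The class of Ikzf2, H3K4me3 with no H3K27ac in the tile, held 3.65% of the 200 kb tiles, against 43.8% with both marks and 45.5% with neither.

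**Figure D4:**
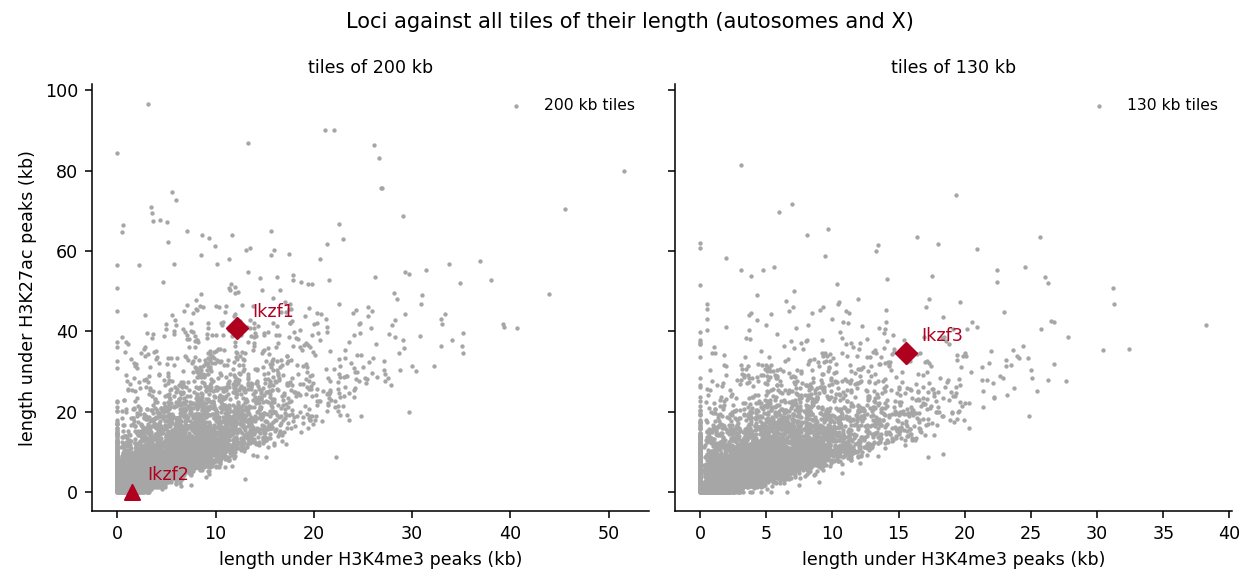
Length under H3K27ac peaks against length under H3K4me3 peaks (kb) in all tiles of 200 kb (left, with Ikzf1 and Ikzf2 in red) and of 130 kb (right, with Ikzf3 in red); each grey point is 1 tile or several with the same values. Ikzf1 at 40.8 and 12.2 kb and Ikzf3 at 34.6 and 15.6 kb lie far above most tiles, and Ikzf2 lies on the axis at 0 kb of H3K27ac.

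The borders of the windows decided which peaks were counted. Inside the Ikzf1 window, the outermost H3K27ac peaks began at 11554094 and ended at 11689121. Outside it, the nearest H3K27ac peaks lay 11.3 kb below the window (3872 bp, score 2295) and 6.08 kb above it (5457 bp, score 3100), the upper one over an H3K4me3 peak of 3456 bp scoring 3100. At Ikzf3 the lowest H3K27ac peak crossed the border, and the nearest wholly outside lay 37.3 kb below (1657 bp, score 2444) and 17.6 kb above (1719 bp, score 731). At Ikzf2 the nearest H3K27ac peak lay 570 kb above its window.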

How the data were processed

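The authors immunoprecipitated cross-linked, sonicated chromatin, per the labels' protocols, with 1 library each for H3K27ac, H3K4me3 and IgG. The labels state 11% formaldehyde. Peaks were called with MACS on mm9, per the submitters' processing notes. For the aligner, MACS version, read filters and depth: not given in the sources used here. Each deposited list gives a start, an end and a score per peak. The score is the authors' own value, lowest 50.01 in both lists.

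Samples were grouped by title. Peaks touching a window by at least 1 bp were members, and starts were counted from 1. Covered lengths were cut at window borders, while peak widths and stitched lengths were not. Marks overlapped when they shared at least 1 bp. H3K27ac peaks up to 12500 bp apart were stitched. Percentages carry exact (Clopper-Pearson) 95% intervals. Tiles began at position 1 of each chromosome. No annotation of mm9 was used: gene order came from RefSeq on GRCm38.p6, and the labelled cell type was not checked against marker genes. Named peaks were the widest and those at the ceiling, with the others by range. Members and lists were chosen with earlier results of these data known. Alternatives covered score, joining, windows, list length, overlap and stitching. Tools were SciPy 1.17.1, Matplotlib 3.10.9, NumPy 2.4.6 and pandas 2.3.3 under Python 3.11.15. The code was tested on simulated data. Protein sequences were not analysed here.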

Additional observations from a re-analysis of the deposited data

How the results depend on the processing

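Of 132 alternative values, 119 stayed within 1.5 times the reported value (percentages, within its interval), 13 moved further and 0 changed sign. Some of the 119 could hardly move. The nearest H3K27ac peak lay 570 kb above the Ikzf2 window, so the H3K27ac values of Ikzf2 could only stay at 0. Intervals were wide where peaks were few, at 15.8 to 100% for the Ikzf1 H3K4me3 overlap and 0 to 97.5% for Ikzf2. The Ikzf1 share fell from 100% to 50% without peaks scoring under 100, and also with the H3K27ac list shortened, yet counted as unmoved. At Ikzf1 the 13 H3K27ac peaks became 7 with scores of at least 100, 5 with lists of the same length and 21 with windows widened by 50 kb, where the covered length became 70.9 kb. Its 2 H3K4me3 peaks became 6 with widened and 1 with narrowed windows (10% from each side). The 12 H3K27ac peaks of Ikzf3 became 7 with lists of the same length. The H3K27ac length of Ikzf1 minus Ikzf3 was 6.15 kb and became 3.23 kb with scores of at least 100 and 31.2 kb with widened windows. Ikzf1 minus Ikzf2 was 40.8 kb and became 70.9 kb with widened windows. Fewer peaks follow from the shorter lists and more from the wider windows. Stitching at 20 kb gave 2 regions at Ikzf1 and 2 at Ikzf3 in place of 4 each, and stitching at 5 kb gave 7 at Ikzf3. The Ikzf2 window held 0 H3K27ac peaks and 1 H3K4me3 peak under each alternative run. Shifting the tiles along the chromosomes, an alternative chosen after seeing the data, changed no share of peak numbers by 1.5 times. No paired analysis was possible because each mark had 1 library and no test was made. Depth is unknown, so whether acetylation at Ikzf2 fell below the reach of the peak calling cannot be told from the lists.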
